A study of Rattus norvegicus with 4 samples.

Results

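The circadian clock genes described here are 10 genes chosen by name: Clock, Arntl, Per1, Per2, Per3, Cry1, Cry2, Nr1d1, Nr1d2 and Dbp. Their rows were taken from the input tables by gene symbol, and their m6A peaks from the peak lists by gene name. Of the 22714 rows of the input tables, 9 carried one of these symbols, each gene once; Clock had no row under its own symbol and entered through a peak. The lists held 5 of their peaks among 8192 in the untreated culture and 5 among 8183 after exposure.

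The samples were rat hippocampal neurons in primary culture, given Ara-C, which stops dividing cells, on day 7 in vitro. They were either untreated (Ctrl) or exposed at 1 mM to BPA (bisphenol A, a compound of plastics that can act on hormone receptors) for 48 h. The labels give the exposure as day 12 to 13 for the input and as day 12 to 14 for the immunoprecipitated sample, and they name no time of day of harvest. They do not say how the earlier end day goes with 48 h. Whether both exposed samples were harvested on the same day is thus not settled. RNA was sequenced before (Input) and after (IP) pull-down with an antibody against m6A, a methylated adenosine found inside mRNA, so that Ctrl_Input, Ctrl_IP, BPA_Input and BPA_IP were 4 groups of 1 library each. Without a second culture in any group, no test between conditions was possible, and every interval below covers read counting only.

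The clock is a transcriptional feedback loop that runs in nearly every cell of the body, hippocampal neurons and astrocytes included. CLOCK and BMAL1, the product of Arntl, bind E-box elements as a pair and drive the Per and Cry genes, whose proteins return to the nucleus and block the pair. The same pair drives Nr1d1 and Nr1d2, which encode the nuclear receptors REV-ERB alpha and beta; these bind ROR elements (RREs) and repress Arntl. Dbp, an output gene of the pair, encodes a PAR bZIP factor that binds D-box elements, so that the E-box, the D-box and the RRE are the 3 elements that tie the loop together.

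Promoter windows of RefSeq (build GRCr8, 250 bases before to 50 bases after a gene's start) were found for 9 of the 10 genes, 11 windows in all; Cry1 was not matched. The windows shown are some of those in which motifs were found, so they do not stand for all 11. They are Arntl with RREs, Per2 with an E-box-like element and a D-box, and the second Nr1d1 window with an E-box. Capitals mark the motifs found, and each sequence runs 5′ to 3′ on the gene's strand.
Arntl (RefSeq symbol Bmal1), chr1:176766078-176766377, plus strand: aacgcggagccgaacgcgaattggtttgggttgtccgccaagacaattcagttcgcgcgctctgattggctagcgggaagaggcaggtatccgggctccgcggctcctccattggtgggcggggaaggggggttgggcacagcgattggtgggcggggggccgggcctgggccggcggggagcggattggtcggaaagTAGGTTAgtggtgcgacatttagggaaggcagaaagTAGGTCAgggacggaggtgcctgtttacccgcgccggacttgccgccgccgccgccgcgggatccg
Per2, chr9:99496944-99497243, minus strand: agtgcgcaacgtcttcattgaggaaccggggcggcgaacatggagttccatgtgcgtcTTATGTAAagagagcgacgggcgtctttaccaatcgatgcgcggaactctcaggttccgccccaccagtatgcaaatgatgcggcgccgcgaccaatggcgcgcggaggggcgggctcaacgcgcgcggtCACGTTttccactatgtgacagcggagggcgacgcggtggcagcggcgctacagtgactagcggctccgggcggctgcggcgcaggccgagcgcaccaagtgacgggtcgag
Nr1d1, second window, chr10:84229405-84229704, minus strand: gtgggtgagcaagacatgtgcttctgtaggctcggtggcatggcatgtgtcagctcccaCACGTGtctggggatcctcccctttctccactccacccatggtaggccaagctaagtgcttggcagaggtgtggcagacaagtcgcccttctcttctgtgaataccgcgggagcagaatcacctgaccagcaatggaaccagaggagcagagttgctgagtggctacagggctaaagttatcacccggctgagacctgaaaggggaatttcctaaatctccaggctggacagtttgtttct

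The search covered both strands for the E-box CACGTG, the D-box as TTATGTAA or as TTACGTAA, and the RRE as TAGGTCA or as TGGGTCA. After the sequences had been read, CACGTT (the E′-box known from mouse Per2) and TAGGTTA (a variant RRE) were added. In the Arntl window TAGGTCA began 16 bases and TAGGTTA 52 bases before the start; 2.63% and 1.61% of all 33469 windows of that length held these letters, and 0.0807% held both. In the Per2 window CACGTT began 62 bases and TTATGTAA 192 bases before the start, with shares over all windows of 4.83% and 0.893%, and 0.0329% held both. Since TAGGTTA and CACGTT were added after these windows had been read, their shares, alone or with another motif, are given as description only. The second Nr1d1 window held CACGTG 191 bases before the start, as 6.42% of all windows did. CACGTT also lay on the opposite strand in the Cry2 window and in the first Nr1d1 window. The windows of Clock, Per1, Per3, Nr1d2 and Dbp held none of these letters. Of the motifs set at first, CACGTG, TTATGTAA and TAGGTCA each lay in windows of 1 gene, and TTACGTAA and TGGGTCA in windows of 0. Over all windows, 13.5% held at least 1 of the motifs set at first. None of the motifs searched overlapped another in these windows. A match describes the letters only, and the files measure no binding to DNA.

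As for the libraries themselves, deposited counts summed to 9837064 in Ctrl_Input and 9774929 in BPA_Input. All 8 neuronal markers looked up were present, at an FPKM of 27.3 to 401 (FPKM is a level scaled to transcript length and library size), and so were the hippocampal markers Zbtb20, Prox1, Neurod6 and Emx1. Astrocyte markers were also high: 6 of them summed to an FPKM of 6694 in Ctrl_Input and 6168 in BPA_Input, with 5 of the 6 lower after exposure, beside sums of 1418 and 1530 for the 8 neuronal markers, 5 of which were higher. Of 3 markers of suprachiasmatic neurons, the cells of the central clock, Avp and Six6 were at 0 counts in both libraries and Vip was at an FPKM of 10.9 and 11.2. The clock transcripts below are therefore those of a neuron and astrocyte culture, in which fewer cells of a type and less RNA per cell cannot be told apart; the part of the astrocyte and neuron shares in the clock gene ratios was not tested.

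All 9 clock genes with a row were transcribed well above the limit of counting in both libraries, and the levels of each lay close together in Ctrl_Input and BPA_Input. Dbp had the highest level per length, with an FPKM of 36.7 in Ctrl_Input (95% exact Poisson interval 33.7 to 39.8) and 36.3 in BPA_Input (33.4 to 39.5). Cry2, a repressor of the CLOCK:BMAL1 pair, followed at an FPKM of 28.6 (27.0 to 30.3) and 28.7 (27.1 to 30.4). The intervals of Dbp and Cry2 did not overlap in either library, and those of Cry2 and the next gene, Nr1d2, did not either. Nr1d2 and Nr1d1 stood at an FPKM of 18.4 and 15.9 in Ctrl_Input and of 17.1 and 13.7 in BPA_Input, with intervals that overlapped in both.

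Lower in the order came Per1 (FPKM 12.0 and 11.4) and Arntl (11.5 and 12.2), whose intervals overlapped and whose order was opposite in the libraries. Cry1 was at an FPKM of 8.60 in both, and Per2 at 7.42 and 7.30, again with overlapping intervals. Per3 was lowest, at an FPKM of 5.75 (4.99 to 6.58) in Ctrl_Input and 5.15 (4.43 to 5.95) in BPA_Input, below Per2 beyond counting error. Apart from Per1 and Arntl, the genes kept the same order in both libraries, with the output gene Dbp first and the period genes Per2 and Per3 last.

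**Figure D1:**
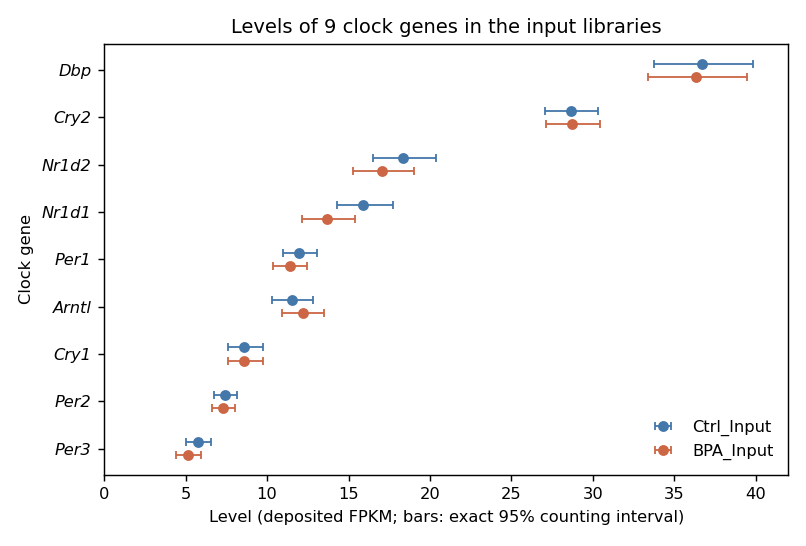
Level of the 9 clock genes with a row, as deposited FPKM (x axis, from 0), with 1 point for each input library and bars for the exact 95% Poisson interval of its reads. The points of both libraries lie close together for every gene, from Dbp at 36.7 and 36.3 down to Per3 at 5.75 and 5.15, and Nr1d1 (15.9 and 13.7) shows the widest relative gap.

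The first comparison asked whether exposure went with a different level of the clock transcripts. None of the 9 genes differed by 2-fold or more between the libraries, where 2.02% of the 13006 genes tested did (those averaging 10 counts or more over both libraries). Their ratios of BPA_Input over Ctrl_Input ran from 0.856 to 1.06, and the 95% intervals of all 9 (exact Clopper-Pearson) lay between 0.729 and 1.23, so a 2-fold difference was outside counting error for each. No interval left out 1, against 18.3% of all genes tested. The median log2 ratio was -0.02, beside 0.002 over all genes tested. Counts were lower after exposure for 6 of the 9 genes, against 49.6% of all genes tested; in so short a list these shares are given as description.

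Among the drivers, Arntl had 342 counts in Ctrl_Input and 362 in BPA_Input, 1.06-fold (interval 0.909 to 1.23), the highest ratio of the 9. Clock itself could not be read from a row of that name. The locus on chromosome 14, from 34242961 to 34282766, that holds the Clock peak of the untreated list is listed as LOC100911602, with no description in the files. That row had 388 and 392 counts (1.01-fold, 0.874 to 1.17) and is given for orientation only, not as a value of Clock.

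The repressors are the period genes and the cryptochromes. Per1, an early-responding period gene that is also switched on by neuronal activity, had 507 counts in Ctrl_Input and 481 in BPA_Input (0.950-fold, 0.836 to 1.08). Per2, whose mutation disturbs the daily rhythm of mice, had 460 and 453 (0.984-fold, 0.861 to 1.12). Per3 had 211 and 189 (0.896-fold, 0.731 to 1.10). All 3 intervals reached across 1, so these differences were within counting error. Cry1 had 259 and 260 counts (1.00-fold, 0.838 to 1.20). Cry2, with the most reads of the set, had 1199 and 1203 and the narrowest interval (1.00-fold, 0.925 to 1.09).

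The REV-ERB genes held the lowest value of the set. Nr1d1 had 340 counts in Ctrl_Input and 291 in BPA_Input, 0.856-fold, with an interval from 0.729 to 1.01 that only just reached 1. Nr1d2 had 363 and 338 (0.931-fold, 0.800 to 1.08). The output gene Dbp had 571 and 566 (0.991-fold, 0.880 to 1.12). Nr1d1 and Arntl stood at opposite ends of the set, though both intervals included 1, and a link between their ratios was not tested.

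Nr1d1 shares its locus with another gene. In the files it is listed on chromosome 10 from 86465253 to 86486598 on the minus strand. Thra, the thyroid hormone receptor alpha, is listed over the same span on the plus strand, so these bounds cannot be read as those of Nr1d1 alone. Thra had 3415 and 3629 counts (1.06-fold, 1.01 to 1.11), the opposite direction to Nr1d1, and an FPKM of 151 and 160 against 15.9 and 13.7. The libraries were made with a directional kit, but the strand setting of the counting is not given in the sources used here, so reads of the genes may be split between them and the Nr1d1 ratio is uncertain to that extent. The other 8 loci overlapped no further row.

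**Figure D2:**
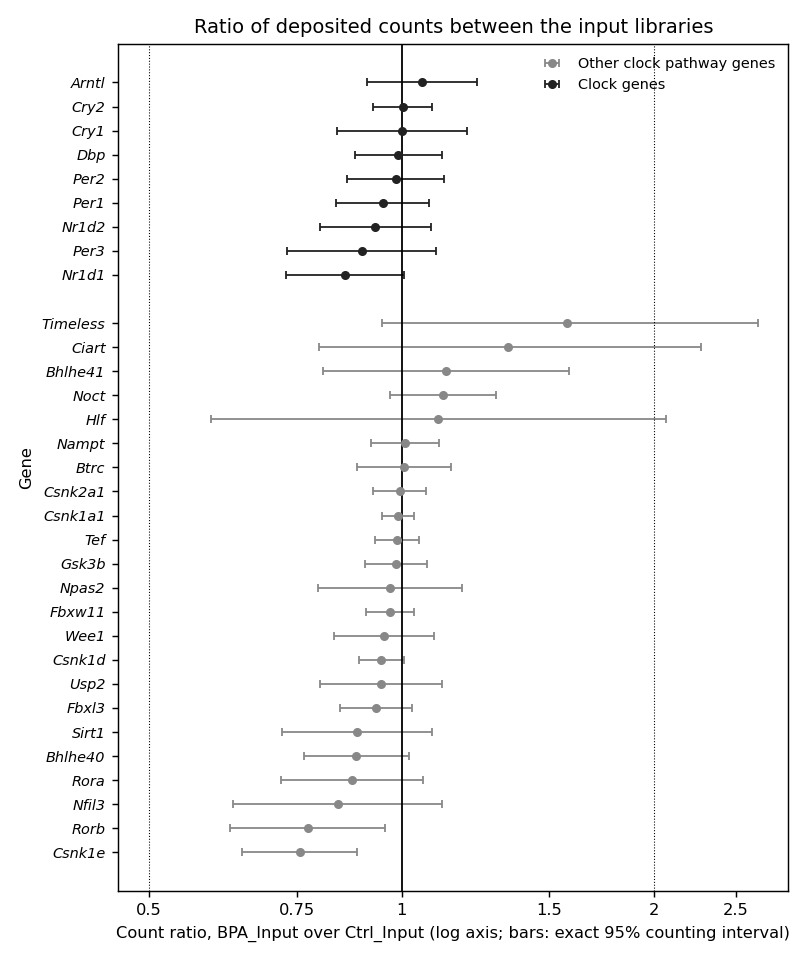
Ratio of deposited counts, BPA_Input over Ctrl_Input (x axis, log scale), for the 9 clock genes (black) and 23 other clock pathway genes (grey), with exact 95% counting intervals; dotted lines mark 2-fold. All clock gene intervals include 1, with Nr1d1 (0.856) lowest and Arntl (1.06) highest; of the 23 others, the intervals of 2 (Csnk1e and Rorb) leave out 1, against 18.3% of all genes tested.

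Depth sets how closely these ratios can be read. Mean counts of the 9 genes ran from 200.0 (Per3) to 1201 (Cry2), and 5669 genes lay in that range. The central 68% of those genes spanned log2 ratios from -0.14 to 0.14 and the central 95% from -0.29 to 0.29. Of the 9 clock genes, 7 fell inside the narrower range and all 9 inside the wider; Nr1d1 (-0.22) and Per3 (-0.16) were the ones outside the narrower. Of all genes at this depth, 0.194% passed 2-fold.

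**Figure D3:**
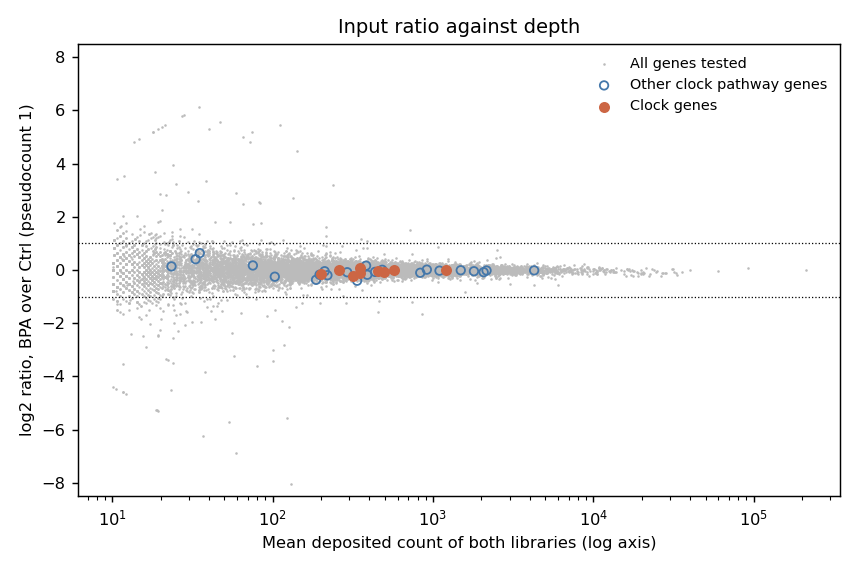
log2 ratio of BPA_Input over Ctrl_Input (y axis, pseudocount 1) against the mean deposited count (x axis, log scale) for 13006 genes (grey), 23 other clock pathway genes (open circles) and the 9 clock genes (filled); dotted lines mark 2-fold. The clock genes sit inside the grey cloud, between -0.22 and 0.08.

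Other genes of the clock pathway gave a similar picture. Of 26 listed, 25 had a row (Noct under its older symbol Ccrn4l; Fbxl21 had none) and 23 averaged 10 counts or more. None of the 23 passed 2-fold, against 2.02% of all genes tested. In the exposed library 7 were higher and 16 lower, against 49.6% lower over all genes, and the median log2 ratio was -0.04 beside 0.002. The interval left out 1 for 2 of the 23, a smaller share than the 18.3% over all genes tested, so the values of these 2 genes are given as description. Csnk1e encodes casein kinase 1 epsilon, which phosphorylates the PER proteins and so sets the pace of the loop; it had 383 and 289 counts (0.756-fold, 0.646 to 0.884). Its close paralogue Csnk1d had 2125 and 2010 (0.946-fold, 0.889 to 1.01), and whether reads were split between the paralogues was not tested. Rorb encodes a nuclear receptor that binds RREs as an activator; it had 210 and 163 counts (0.774-fold, 0.626 to 0.956).

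Among those averaging 50 counts or more, the next lowest was Nfil3, a repressor at D-box elements, with 112 and 94.0 counts (0.839-fold, 0.630 to 1.12). The highest were the repressor Bhlhe41 (70.7 and 79.7 counts, 1.13-fold, 0.807 to 1.58) and Noct (360 and 404, 1.12-fold, 0.969 to 1.30). Next came Nampt, which makes a precursor of NAD (910 and 919, 1.01-fold, 0.920 to 1.11). The highest levels per length belonged to kinases with many substrates beyond the clock, Csnk1a1 (FPKM 205 and 203), Csnk2a1 (108 and 107) and Gsk3b (76.4 and 75.0). Arntl2 (6.06 and 3.07 counts) had too few reads to be compared. The circadian rhythm pathway of the deposited annotation, looked up after the values had been seen, held 27 genes that averaged 10 counts or more. Of these, 7 were among the 9, and the list shares its lowest log2 ratio (-0.40) with the 23 others, so it is not a separate set. None passed 2-fold (2.02% of all genes tested). In the exposed library 9 were higher and 18 lower (49.6% lower over all genes), with a median log2 ratio of -0.07 beside 0.002.

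The second comparison asked which clock transcripts carried m6A peaks and whether these differed after exposure. Arntl and Dbp were listed with the same peaks in both lists, while Per1, Per2, Per3, Cry1, Nr1d1 and Nr1d2 had none under their names in either. By list, 3 of the 10 genes had a peak in Ctrl_IP (Arntl, Clock and Dbp) and 3 in BPA_IP (Arntl, Cry2 and Dbp). Of the 12243 genes at an FPKM of 1 or more in each input library, 30.4% had a peak in the untreated list and 30.9% in the exposed list. Among the 6860 genes within the clock genes' own range of levels the shares were 35.3% and 35.4%, and of the 9 clock genes with a row, which can be set beside these shares, 2 had a peak in Ctrl_IP and 3 in BPA_IP. With so few genes these counts are given as description. The files list only called peaks, so a gene without one is not shown to lack m6A.

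The strength of a peak is given by the authors' own score and fold enrichment. The score is -10 × log10 of its p-value. An FDR of 100% is listed for every peak of both lists, so by that value no peak passes a cutoff. For the exposed list, the fold enrichments set IP against an input labelled with an earlier end day. The Dbp peak was the strongest of the set, 212 bp on chromosome 1 from 102769764 to 102769975 in the files' coordinates. Its fold enrichment of IP over input was 8.08 in the untreated list and 10.6 in the exposed list, above 72.6% and 82.0% of the peaks of each. Its score was 125.83 and 93.16, so that the fold enrichment was higher and the score lower in the exposed list. It lay 63.3% of the way along the Dbp locus, 1699 bp before its end.

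Arntl carried 3 peaks in each list, all in the later part of its 97842 bp locus. The first, 153 bp from 185075231 to 185075383 on chromosome 1, had a fold enrichment of 6.91 (untreated) and 7.08 (exposed) and a score of 27.57 and 65.8. The second, 158 bp from 185078907 to 185079064, had 5.26 and 6.19, with scores of 65.66 and 28.12. The third, 247 bp from 185091396 to 185091642, had 6.40 and 4.60, with scores of 34.69 and 27.84. The strongest peak by score was thus the second in the untreated list and the first in the exposed list. By fold enrichment the first was highest in both (6.91 and 7.08), so a change of the strongest peak showed in the score only. Their centres lay 69.2%, 73.0% and 85.8% along the locus. Medians over all peaks were a fold enrichment of 5.92 and 6.28 and a score of 35.6 and 40.0, so the Arntl peaks were of middling strength.

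The edges of these 4 sites were identical between the lists. This was not particular to Arntl and Dbp, since the shared peaks of the other clock pathway genes also had identical edges, apart from a site in Fbxw11. Of the clock gene peaks, 4 of 5 in each list overlapped the opposite list by at least 1 bp, beside 73.3% of all untreated and 73.4% of all exposed peaks. The exceptions were weak. The Clock peak (101 bp, chromosome 14, 34267923 to 34268023, untreated list) had a fold enrichment of 2.28 and a score of 3.22, a p of 0.476 by its header. The Cry2 peak (148 bp, chromosome 3, 88025187 to 88025334, exposed list) had 4.50 and 3.54, a p of 0.443. Both scores were near 3.02, the lowest listed, so neither peak shows a gain or a loss. No genome of the files' build was used, so the exons, introns or UTRs under the peaks and the bases in them are not described here.

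**Figure D4:**
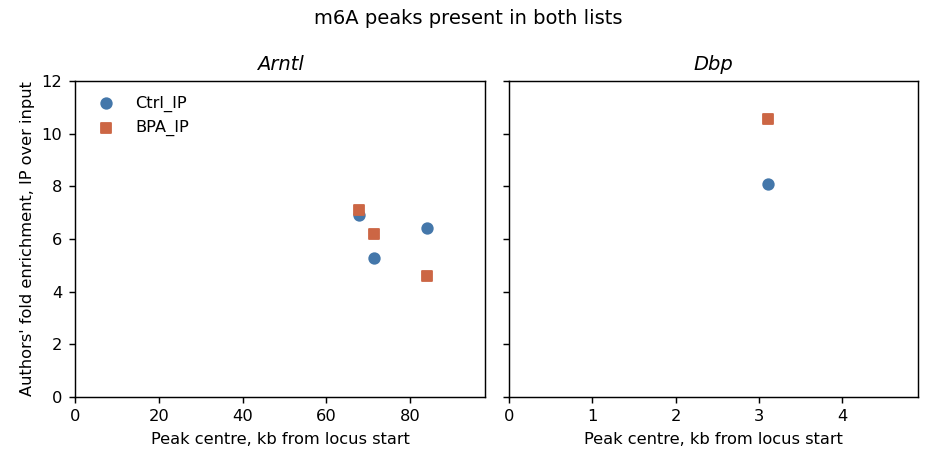
Authors' fold enrichment of IP over input (y axis, from 0) against the distance of the peak centre from the start of the gene's locus (x axis, kb) for the peaks of Arntl and Dbp that both lists hold, with circles for Ctrl_IP and squares for BPA_IP. The third Arntl peak is higher in Ctrl_IP (6.40 and 4.60) and the Dbp peak in BPA_IP (8.08 and 10.6); 1 library stands behind each point.

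The span listed for both Nr1d1 and Thra held 2 peaks in each list, which the authors gave to Thra. Since the listed span is identical for both genes, a position inside it does not place a peak in Nr1d1. The peak at the low end of the shared span (86465253 to 86465607) had a fold enrichment of 7.77 and 7.72, and that at 86468122 to 86468189 had 10.6 and 9.98. Which strand the pulled-down fragments came from is not given in the lists.

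Of the 25 other clock pathway genes with a row, 10 had a peak in the untreated list and 11 in the exposed list, against 30.4% and 30.9% of all genes at an FPKM of 1 or more. They carried 12 peaks in the untreated list, of which 10 overlapped the exposed list, and 13 in the exposed list, of which 10 overlapped the untreated list, beside 73.3% and 73.4% of all peaks. Tef, a D-box activator of the same PAR bZIP family as Dbp, carried a peak of 239 bp with a fold enrichment of 7.32 and 8.10. Fbxw11, a ubiquitin ligase subunit that marks PER proteins for destruction, carried the highest enrichment of the exposed list among them, with 13.1 and 16.9 at a site of 63 bp. The unshared peaks were given to Bhlhe41 and Rorb in the untreated list and to Bhlhe40, Hlf and Wee1 in the exposed list. Apart from that of Bhlhe41 they were weak, with scores of 16.64 (Rorb), 20.16 (Bhlhe40), 15.89 (Hlf) and 6.12 (Wee1). All 4 scores were below the medians of the lists, and the Rorb peak lay outside the span of the Rorb row. The Bhlhe41 peak (chromosome 4, 244397034 to 244397145) had a fold enrichment of 10.7 and a score of 450.75, the highest score of any clock pathway peak in that list. It was singled out after its values were seen, and with 1 library a list the absence of an overlapping peak has no replicate check.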

How the data were processed

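Per the labels' protocols, m6A pull-down used total RNA and a commercial kit, and library preparation kept strand. Tools named in the submitters' processing notes, without roles, are HISAT2 2.0.4, STAR and cutadapt 1.9.3; the sources used here give no quantifier, peak caller settings or genome build. Per the file headers, the deposited input tables give an FPKM and a count per gene. These deposited counts behave as estimated counts times a library factor: small values came in multiples of 1.01 (Ctrl) and 1.02 (BPA), and 96.5% of values under 300 reads were within 0.01 of whole reads after division. The deposited peak lists give a score, a fold enrichment ratio and an FDR in percent, which was 100 for every peak.

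From these, log2((BPA + 1)/(Ctrl + 1)) was computed on the counts as deposited, for genes averaging 10 counts or more; with 1 library per group no test was run. Ratios of 2-fold or more in either direction counted as differences. For a repeated symbol the row with most reads was used. Ratios have exact binomial 95% intervals and FPKM exact Poisson 95% intervals, from reads rounded to whole numbers; both cover counting error only, since reads carry no molecular tags. Peaks were compared by position (1 bp of overlap); deposited starts were raised by 1 to be 1-based, since listed lengths equal end minus start. The size rule and intervals were tested on simulated data. Members and lists were chosen with earlier results of these data known. All 10 clock genes were to be named, and of the other pathway genes those past 2-fold, the 3 highest and 3 lowest ratios at an average of 50 counts or more, and the 3 highest FPKM; 1 listed gene is not reported here. Alternatives were pseudocounts of 0.1 and 5, FPKM + 1, centring, TMM (edgeR 4.0.16), summed rows, other count filters, stricter peak scores and a reciprocal overlap of 50%. Python 3.11.15, scipy 1.17.1 and pandas 2.3.3 were used.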

Additional observations from a re-analysis of the deposited data

How the results depend on the processing

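All 45 log2 ratios of the 9 clock genes under 5 other settings (pseudocounts of 0.1 and 5, FPKM + 1, centring on the median gene and TMM) stayed inside the counting interval of the reported value, with a largest shift of 0.023. The sign differed from the reported one in 2 of them, both for Cry1, which lay at 0.0012. Summing the rows of a symbol could change none of them, since each has 1 row. The count of clock genes past 2-fold was 0 under each filter. The count of all genes past 2-fold moved from 263 to 1946 with no filter on low counts and to 52 with a mean of at least 50 counts. With peaks of a score of at least 100, the clock genes with a peak numbered 1 in the untreated list (Dbp) and 0 in the exposed list. The Dbp peak scored 93.16 in the exposed list, just under that cutoff, so the shared peaks numbered 0 in both. At that score 11.9% and 12.4% of genes at an FPKM of 1 or more had a peak. Of all peaks at that score, 78.3% and 74.6% were shared. With peaks of a p of at most 0.05 there were 2 genes in each list, Arntl and Dbp, beside 22.7% and 23.8% of genes at an FPKM of 1 or more. A reciprocal overlap of 50% left the shared peaks at 4 of 5. No paired analysis was possible because each group holds 1 library. Depth limits these ratios: the interval of Cry2, with most reads, still spanned 0.925 to 1.09, and the spread between cultures was not measured.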

Other observations

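Within a library, the ratio of Nr1d1 to Arntl compares transcripts that peak at opposite phases of the cycle in most tissues, and it does not depend on library scaling. By FPKM it was 1.38 in the untreated and 1.12 in the exposed library, a ratio between libraries of 0.814. From the reads the odds ratio was 0.810, with an exact 95% interval of 0.648 to 1.01 for counting error. The pair was chosen after its values were seen, as the lowest and highest of the 9 ratios. A value below 1 therefore followed from the choice, and the interval makes no allowance for it. The odds ratio is a description without a test, and the overlap of Nr1d1 with Thra applies to it as well.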
